A study of Mus musculus with 31 samples.

Results

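Transcripts of the proteasome subunit genes were followed in gastrocnemius of wild-type and MuRF1 -/- mice. The genes were chosen by name, as protein-coding genes whose symbol is Psma, Psmb, Psmc or Psmd followed by a number, with 10 or more counts in 3 or more libraries, leaving out genes within 10 Mb of Trim63 on chromosome 4. Of 39017 gene identifiers, 39 carried such a symbol and 36 were kept. Psma8 and Psmb11 reached 10 counts in 0 libraries, and Psmb2 lies in the stretch left out. The 36 comprised 7 alpha subunits of the 20S core (Psma1 to Psma7), 9 beta subunits, 6 ATPases of the 19S cap (Psmc1 to Psmc6) and 14 other genes of the 19S family (Psmd1 to Psmd14). All 36 passed the filter on low counts, which left 14024 genes for testing.

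Each library came from the gastrocnemius, a calf muscle, of 1 mouse. Mice were wild type or MuRF1 -/-, written WT and KO below, and were fed chow throughout or a high-fat diet (HFD) with 45% fat from lard from 8 weeks of age. All were fed without restriction and muscle was taken at 30 weeks of age. There were 4 libraries each of male WT chow, male KO chow, male WT HFD, female WT chow, female KO chow and female WT HFD, and 3 each of male KO HFD and female KO HFD. The labels do not give the origin of the KO allele or the tissues it affects. The comparisons address genotype, diet and sex and their combinations.

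The proteasome is the protease that degrades proteins tagged with ubiquitin. Its 20S core is a barrel of alpha rings, which gate entry, around beta rings, in which Psmb5, Psmb6 and Psmb7 encode the catalytic sites. Interferon can replace these with Psmb8, Psmb9 and Psmb10, giving the immunoproteasome, which favours peptides for presentation by MHC class I. The 19S cap binds and unfolds substrates with its ATPase ring and removes ubiquitin with Psmd14. Psmd5, Psmd9 and Psmd10 encode chaperones that assemble the cap and leave it. MuRF1, encoded by Trim63, is a muscle ubiquitin ligase upstream of the proteasome, best known from muscle wasting.

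Total counts ran from 9342028 to 14919379 per library. In 19 of 31 records the animal number in the title differed from that in the description, and libraries were grouped by the described animal. This gave 30 libraries a group, 4 of which differ from the group of their own title, and left 1 without one. For all 4, Trim63 or the sex-linked transcripts Ddx3y and Xist went against the group in the title: 2 titled KO held 221 and 119 CPM of Trim63, 1 titled female WT HFD held 0.87 CPM, and 1 titled female WT chow held 1.80 CPM of Trim63 and 34.1 CPM of Ddx3y. Counts given by title therefore mix genotypes and, in that case, sexes. They also mix diets: by the described animal, the library titled female WT HFD was on chow and that titled female WT chow on HFD. Trim63 lay between 0.47 and 6.24 CPM (counts scaled to the library total) in the 14 KO libraries and between 108.5 and 253.6 CPM in the 16 WT libraries, of which 13 were above 150 CPM. Female WT chow 3, female KO chow 1 and female KO chow 3 held 22.4 to 47.4 CPM of the skin keratin Krt10, against at most 2.82 CPM elsewhere. Female KO HFD 2 held the highest summed level of the subunit genes, and female WT HFD 3 stood apart in the level of genes rich in G and C.

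Promoter windows from RefSeq (GRCm38.p6, 250 bases before to 50 after the start) matched 31 of the 36 genes. The core of the antioxidant response element, TGACNNNGC, bound by Nfe2l1 and related factors, was found on either strand in 5 of the 31 (16.1%; Psmb5, Psmb6, Psmc6, Psmd9 and Psmd12) against 14.0% of 27025 genes. The interferon-stimulated response element was in 3 (9.68% against 3.99%; Psmb3, Psmd4 and Psmd9), none of them an interferon-inducible subunit gene. TTCNNNGAA, the gamma-activated sequence, was in 2 (6.45% against 9.55%; Psmb8 and Psmd2), and CCAAT in 12 (38.7% against 41.1%). AANATGGCG, a motif of YY1 chosen after the Psmd8 window had been read, was in 4 (12.9% against 2.76%; Psmb5, Psmb6, Psmc5 and Psmd8). The element of androgen and glucocorticoid receptors, searched as its palindromic consensus, was in 0 (0.0111% of genes). Both strands were searched for every motif. The matches describe letters, not binding. The first 2 windows belong to catalytic genes that differed in diet response between the sexes, the next to an interferon-inducible gene and the last to the gene that differed most by sex. Capitals mark TGACNNNGC, TGACNNNGC, TTCNNNGAA and the reverse complement of AANATGGCG.
Psmb5, chr14:54618018-54618058, minus strand: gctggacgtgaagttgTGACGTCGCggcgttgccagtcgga
Psmb6, chr11:70525332-70525356, plus strand: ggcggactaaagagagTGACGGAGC
Psmb8, chr17:34198082-34198122, plus strand: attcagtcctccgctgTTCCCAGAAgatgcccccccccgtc
Psmd8, chr7:29180664-29180753, minus strand: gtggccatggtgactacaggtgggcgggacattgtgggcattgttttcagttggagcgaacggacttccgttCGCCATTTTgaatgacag

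Constitutive catalytic genes were expressed far above their interferon-inducible counterparts in this muscle. Levels between genes are given as mean CPM per kilobase of summed exon length over the 30 libraries. Psmb5 lay at 75.3 and its counterpart Psmb8 at 0.961 CPM per kilobase. Psmb6 lay at 57.1 and Psmb9 at 0.694 CPM per kilobase, and Psmb7 lay at 61.4 and Psmb10 at 5.55 CPM per kilobase. With the longest transcript as the length the order within each pair was the same, with Psmb5 at 75.3 against Psmb8 at 1.70, Psmb6 at 111 against Psmb9 at 0.880 and Psmb7 at 73.7 against Psmb10 at 7.22 CPM per kilobase. Psmb9 rested on 11 to 52 counts per library and Psmb8 on 14 to 64, so both are less precise than the other members. Among the remaining genes the highest levels per kilobase of exon were those of Psma6, an alpha ring subunit (97.8), Psmc5, an ATPase (87.2), and Psmd2, the largest scaffold of the cap together with Psmd1 (75.8). Per kilobase of the longest transcript Psma6 was again highest (116), but Psmc3 (106), Psmd6 (103), Psmd8 (103) and Psmd7 (103) then exceeded Psmd2 (102) and Psmc5 (87.2). The lowest of the constitutive genes were the assembly chaperones Psmd9 (2.55), Psmd5 (2.85) and Psmd10 (5.27).

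The members differed in how much they varied between animals. Over the 30 libraries the coefficient of variation of CPM was highest for Psmd8 at 38.7%, followed by Psmb9 at 30.0%, Psmb8 at 27.9% and Psmb10 at 25.1%. It was lowest for Psmd5 at 8.03%, Psmd1 at 8.33% and Psmd11 at 8.34%. The highest library exceeded the lowest by 3.26-fold for Psmd8 and 1.41-fold for Psmd5. These values span all groups and both sexes, which differed 2.06-fold in Psmd8 on average. Counting noise adds to the values of Psmb9 (11 to 52 counts per library) and Psmb8 (14 to 64).

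The response of the subunit genes to the high-fat diet differed between the sexes for most members, while within each sex and genotype at most 15 of 36 passed the test. The diet effect, HFD minus chow on the log2 scale averaged over genotype, was higher in females than in males for 22 of 36 genes and lower for 1 (edgeR's quasi-likelihood test, Benjamini-Hochberg adjusted over all genes at 0.05). Of all genes tested, 21.6% were called higher, 23.6% lower and 45.2% either way in this comparison. The median difference was 0.37 over the members and -0.03 over all genes. Called higher were 3 of 3 catalytic genes, 3 of 3 structural beta genes (Psmb1, Psmb3 and Psmb4), 5 of 6 ATPases, 3 of 7 alpha genes, 7 of 14 non-ATPase genes and, among the inducible genes, Psmb10. Psmd1, a scaffold of the cap, was the 1 gene called lower.

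**Figure D1:**
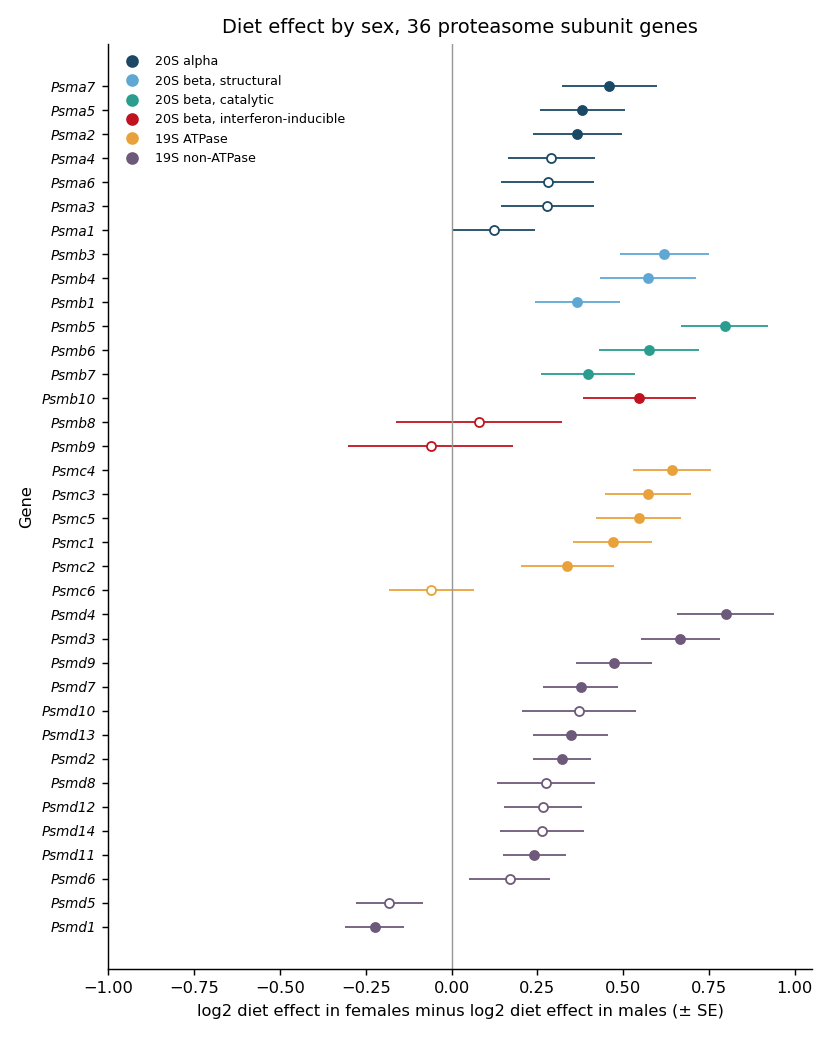
Difference of the log2 diet effect between females and males for the 36 genes, by subunit class (points, estimate; bars, standard error; filled points, adjusted p under 0.05). The 22 filled points to the right of 0 include every catalytic, structural beta and ATPase gene except Psmc6, while Psmd1 is filled to the left of 0.

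Psmb5, which encodes the chymotrypsin-like site, lay at 55.4, 61.6, 47.5 and 53.9 CPM in female WT chow and at 73.1, 78.1, 91.7 and 79.4 CPM in female WT HFD. In female KO it lay at 51.3, 58.7, 46.5 and 58.1 CPM on chow and at 72.5, 104 and 67.6 CPM on HFD. All 7 female HFD libraries were above all 8 female chow libraries. In male WT it lay at 62.3, 81.9, 58.3 and 79.1 CPM on chow and at 61.4, 65.3, 79.6 and 64.0 CPM on HFD. In male KO it lay at 77.8, 78.8, 73.2 and 74.7 CPM on chow and at 56.3, 58.5 and 61.6 CPM on HFD. The male WT groups overlapped, and the male KO HFD libraries were all below those on chow. The difference of the diet effect between the sexes was 0.80 ± 0.13 (log2, SE; adjusted p = 2.13e-05, edgeR).

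Psmd4, the ubiquitin receptor of the cap, lay at 125, 114, 105 and 103 CPM in female WT chow and at 143, 141, 173 and 182 CPM in female WT HFD. In female KO it lay at 109, 114, 111 and 135 CPM on chow and at 148, 211 and 152 CPM on HFD. Females thus did not overlap between the diets in either genotype. In male WT it lay at 124, 158, 131 and 199 CPM on chow and at 119.7, 139, 179 and 134 CPM on HFD, which overlap. In male KO it lay at 184, 179, 180.2 and 172 CPM on chow and at 118, 137 and 141 CPM on HFD, without overlap. That difference did not pass the test (-0.44 ± 0.15, adjusted p = 0.067, edgeR). The difference of the diet effect between the sexes was 0.80 ± 0.14 (log2, SE; adjusted p = 6.1e-05, edgeR). In female WT every HFD library was above every chow library for 11 of 36 members (11.3% of all genes) and below for 1 (11.8%). In female KO the counts were 14 above (16.1% of all genes) and 0 below (17.2%).

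Other genes with a higher diet effect in females were the non-ATPase gene Psmd3 (0.67 ± 0.11), the ATPases Psmc4 (0.64 ± 0.11) and Psmc3 (0.57 ± 0.13) and the structural gene Psmb3 (0.62 ± 0.13). The other catalytic genes, Psmb6 and Psmb7, differed by 0.58 ± 0.14 and 0.40 ± 0.14. For Psmb8 and Psmb9 the difference was 0.08 ± 0.24 and -0.06 ± 0.24, which did not pass the test. Psmd1 differed by -0.22 ± 0.09 (adjusted p = 0.034, edgeR) and was called in 15 of 43 other settings. Psmb7 lost its call without female KO HFD 2 (0.28) and without the 3 libraries highest in Krt10. Exons of Psmb7, Psmc3 and Psmd13 overlap those of Nek6, Slc39a13 and Sirt3 on the opposite strand by 253, 147 and 329 bases.

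Markers moved with these genes. Of 9 skeletal muscle marker genes, 7 also had a higher diet effect in females, with a median of 0.52, led by Acta1. Their sum lay at 119639 to 142957 CPM in female chow libraries and at 143545 to 200268 CPM in female HFD libraries. Among 11 macrophage and leukocyte markers tested, 8 had a lower diet effect in females, as did 5 of 8 fibroblast markers and 5 of 6 adipocyte markers, and 0 of these were higher. Of 8 endothelial markers 2 were higher and 2 lower, and of 16 genes of antigen processing and interferon response 1 was higher and 4 were lower. The level of GC-rich genes relative to GC-poor genes, on the log2 scale, lay at -0.26 to -0.04 in female chow and 0.10 to 0.86 in female HFD libraries. In bulk muscle, a change in the share of fibres and a change in RNA per fibre cannot be told apart. With the GC trend removed, 28 members were called higher and 0 lower, and without the 3 libraries highest in Krt10, 17 and 0. In the first of these settings the median difference was 0.44 over the members and -0.0010 over all genes. The shares of all genes called in these settings are not given here. The part of the cell markers was not tested.

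The summed CPM of the 33 constitutive genes shows the groups together. In female WT it was 3353, 3144, 3045 and 3178 CPM on chow and 3425, 3339, 3377 and 4031 CPM on HFD. In female KO it was 3036, 3081, 3018 and 3495 CPM on chow and 3512, 4786 and 3599 CPM on HFD. The female KO libraries did not overlap between diets, while 1 female WT chow library was above 1 female WT HFD library. In male WT the sum was 3553, 3747, 3467 and 4475 CPM on chow and 3382, 3424, 4427 and 3782 CPM on HFD. In male KO it was 4099.9, 4266, 4068 and 3969 CPM on chow and 3386, 3519 and 3522 CPM on HFD. Male KO libraries on chow were tightly grouped and all above those on HFD, and the male WT groups each held 1 library above every male KO chow library.

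**Figure D2:**
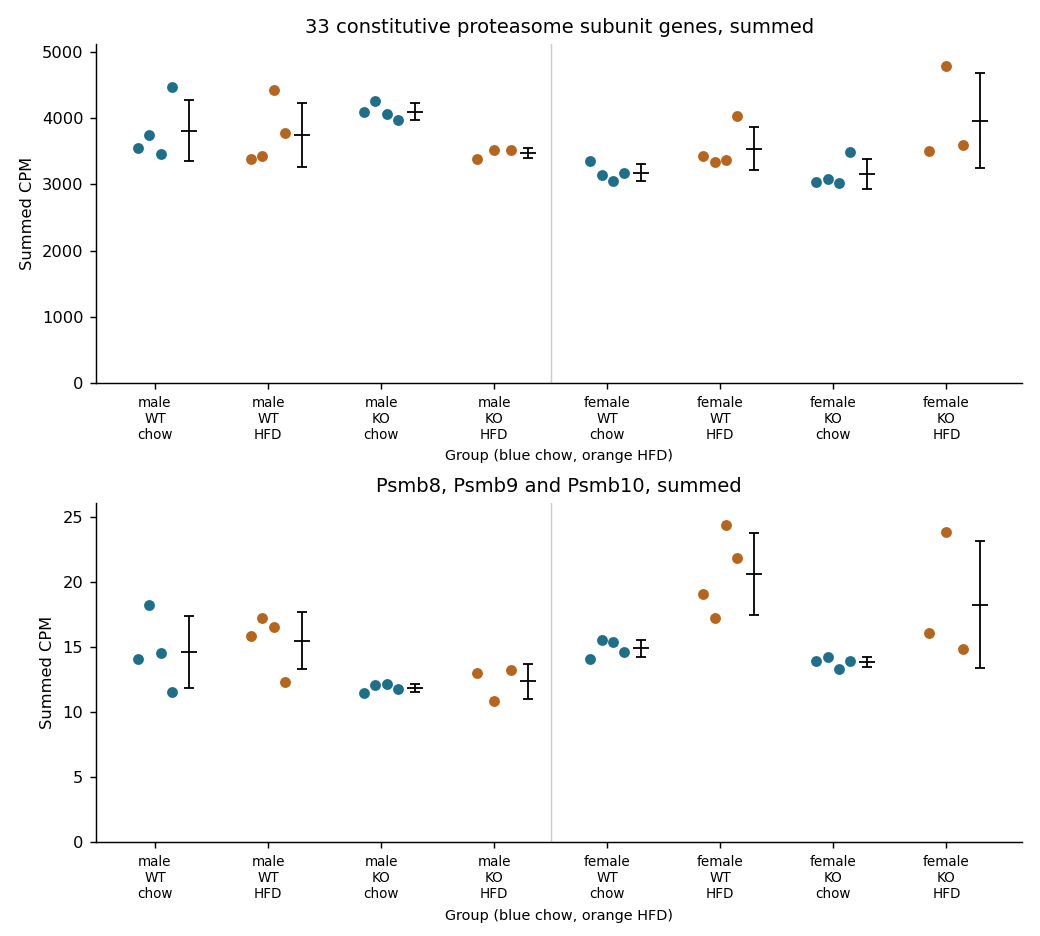
Summed CPM per library for the 33 constitutive genes (top) and for Psmb8, Psmb9 and Psmb10 (bottom) in the 8 groups (points, libraries; blue chow, orange HFD; bars, mean ± SD, n = 3 or 4). In the top panel the female KO HFD libraries (3512 to 4786 CPM) are above the female KO chow libraries (3018 to 3495 CPM), and the male KO HFD libraries (3386 to 3522 CPM) are below the male KO chow libraries (3969 to 4266 CPM).

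In WT females 6 of 36 genes rose on HFD and 1 fell, against 12.9% of all genes called higher, 12.5% lower and 25.4% either way. The share of higher calls was thus not far from that of all genes. Called either way were 19.4% of the members, below the 25.4% of all genes. Psmb5 rose by 0.56 ± 0.12 (log2, SE; 1.48-fold; adjusted p = 0.0023, edgeR), Psmb10 by 0.54 ± 0.15, Psmd4 by 0.52 ± 0.14 and Psmd3 by 0.51 ± 0.11. The ATPase gene Psmc4 rose by 0.38 ± 0.11 and the chaperone gene Psmd9 by 0.29 ± 0.11. Psmd1 fell by 0.23 on the log2 scale (SE 0.08), from 168, 169.7, 166 and 168 CPM to 162, 157, 128 and 126 CPM. The last 2 of its HFD libraries, replicates 3 and 4, carried most of that difference. The call of Psmd1 was lost in 21 and that of Psmd9 in 19 of 44 other settings. Without female WT HFD 3, 3 members were called higher and 0 lower. When libraries were grouped by title, 0 were called. That grouping puts a male KO HFD library into female WT chow and a female KO chow library into female WT HFD. With the GC trend removed 3 were called higher and 0 lower, Psmb5 was 0.29 (adjusted p = 0.064, edgeR), Psmb10 0.27 and Psmc4 0.29, and these 3 lost their calls.

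In KO females 15 of 36 genes rose on HFD and 0 fell, against 10.4% of all genes called higher, 8.79% lower and 19.2% either way. They comprised 3 of 3 catalytic genes, the structural genes Psmb3 and Psmb4, Psmb10, the ATPases Psmc1, Psmc3, Psmc4 and Psmc5, and Psmd2, Psmd3, Psmd4, Psmd9 and Psmd13. The 6 genes that rose in WT females were all among them. Psmd9 had the smallest p and lay at 14.6, 16.1, 16.3 and 16.7 CPM on chow and at 23.0, 27.5 and 22.5 CPM on HFD. Its groups were far apart, and the difference was 0.61 ± 0.11 (log2, SE; adjusted p = 0.0016, edgeR). Psmb5 rose by 0.60 ± 0.13 (1.51-fold), Psmc4 by 0.55 ± 0.12, Psmb6 by 0.54 ± 0.15 and Psmc3 by 0.48 ± 0.13. The count rests on few libraries. Without female KO HFD 2 it was 1 gene higher, with 173 of all genes called higher instead of 1455. The change of Psmb5 was then 0.39, of Psmc4 0.38, of Psmc3 0.26 and of Psmd9 0.51. Without the 3 libraries highest in Krt10 it was 0 members, with Psmb5 at 0.48, Psmc4 at 0.48, Psmc3 at 0.41 and Psmd9 at 0.57. For the difference of the diet effect between genotypes, averaged over the sexes, 0 members were called by edgeR and 0 by DESeq2. Of all genes, edgeR called 0.0499% higher, 0.057% lower and 0.107% either way. An unadjusted p under 0.05 (edgeR) was found for 0 members and for 8.40% of all genes. The median diet change was 0.19 in female WT, 0.32 in female KO, -0.02 in male WT and -0.25 in male KO. The difference between the genotypes was not tested within females.

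In males, 0 members were called for diet in either genotype. In WT males the median change was -0.02, 0 members had an unadjusted p under 0.05 (edgeR), against 10.6% of all genes, and DESeq2 called 0. The shares of all genes called by edgeR were 0.164% higher, 0.185% lower and 0.349% either way. In KO males the median was -0.25, 32 of 36 changes were negative, 13 had an unadjusted p under 0.05 and DESeq2 called 2 genes lower, against 4.01% of all genes called higher, 1.83% lower and 5.83% either way by edgeR. Of all genes, 55.4% had a positive change and 26.2% an unadjusted p under 0.05. For 27 of 36 members every male KO HFD library was below every male KO chow library, against 13.7% of all genes, and for 2 every one was above, against 14.4%. The lowest adjusted p was 0.067, for Psmd4. Psmc3 changed by -0.36 ± 0.13, Psmb3 by -0.36 ± 0.14 and Psmb5 by -0.37 ± 0.13. The count changed with the fit. A fit of the 2 male KO groups alone called 22 genes lower, with 1322 of all genes lower, and leaving out female KO HFD 2, which is in neither group, gave 6 genes lower. Without male WT HFD 3 or male WT chow 4, 1 was lower. The median muscle marker change in KO males was -0.35, with 1 of 9 called (Acta1), and the marker sum lay at 180324 to 224972 CPM on chow and 148918 to 154199 CPM on HFD.

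**Figure D3:**
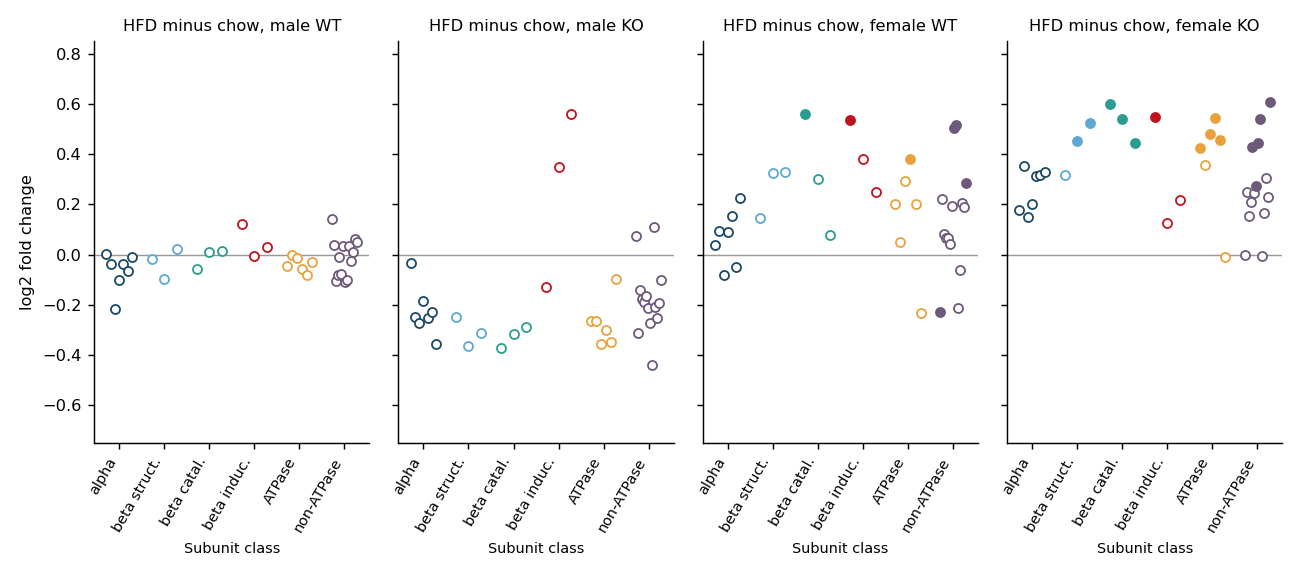
Log2 change of each gene on HFD against chow in the 4 combinations of sex and genotype, by subunit class (points, genes; filled points, adjusted p under 0.05). Most points lie above 0 in both female panels, with 7 and 15 filled, and below 0 in male KO, with 0 filled.

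Averaged over sex and genotype, the diet effect had a median of 0.06 over the members and 0 were called by edgeR, while DESeq2 called 1. Of all genes, edgeR called 0.727% higher, 0.0998% lower and 0.827% either way. At an unadjusted p under 0.05 (edgeR) there were 6 members, against 19.3% of all genes. The largest increase was that of Psmb10 at 0.27 ± 0.08 and the largest decrease that of Psma3 at -0.11 ± 0.07. Psma3 is identical over 665 bases to the pseudogene Gm13835, which held a median of 626 counts against 1099 for Psma3, so its counts are uncertain.

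Psmd8, a gene of the 19S lid on chromosome 7 (29174188 to 29180701, minus strand, mm10), was lower in females than in males in every group. Female libraries lay between 105 and 174 CPM with a median of 128 CPM (n = 15), and male libraries between 211 and 340.3 CPM with a median of 279 CPM (n = 15). The sexes did not overlap, which held for no other member. Of all genes tested, 0.599% had every female library below every male library and 0.15% the reverse. Group means ± SD were 256 ± 57.5 CPM in male WT chow, 308 ± 15.3 in male KO chow, 267 ± 47.8 in male WT HFD and 269 ± 10.0 in male KO HFD. In females they were 125 ± 7.00 CPM in WT chow, 122 ± 20.3 in KO chow, 143 ± 17.6 in WT HFD and 143 ± 27.7 in KO HFD. Each group SD was smaller than the distance between any male and any female group mean. The ranges lay closer, with the highest female library at 174 CPM and the lowest male library at 211 CPM. The average difference was -1.04 ± 0.07 (log2, female minus male, SE; 2.06-fold higher in males; adjusted p = 6.9e-13, edgeR). By p it ranked 35 of 13549 genes outside X and Y, and over 43 other settings the difference stayed between -1.11 and -0.9998. No near-identical copy or gene overlapping its exons was found in the annotation.

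**Figure D4:**
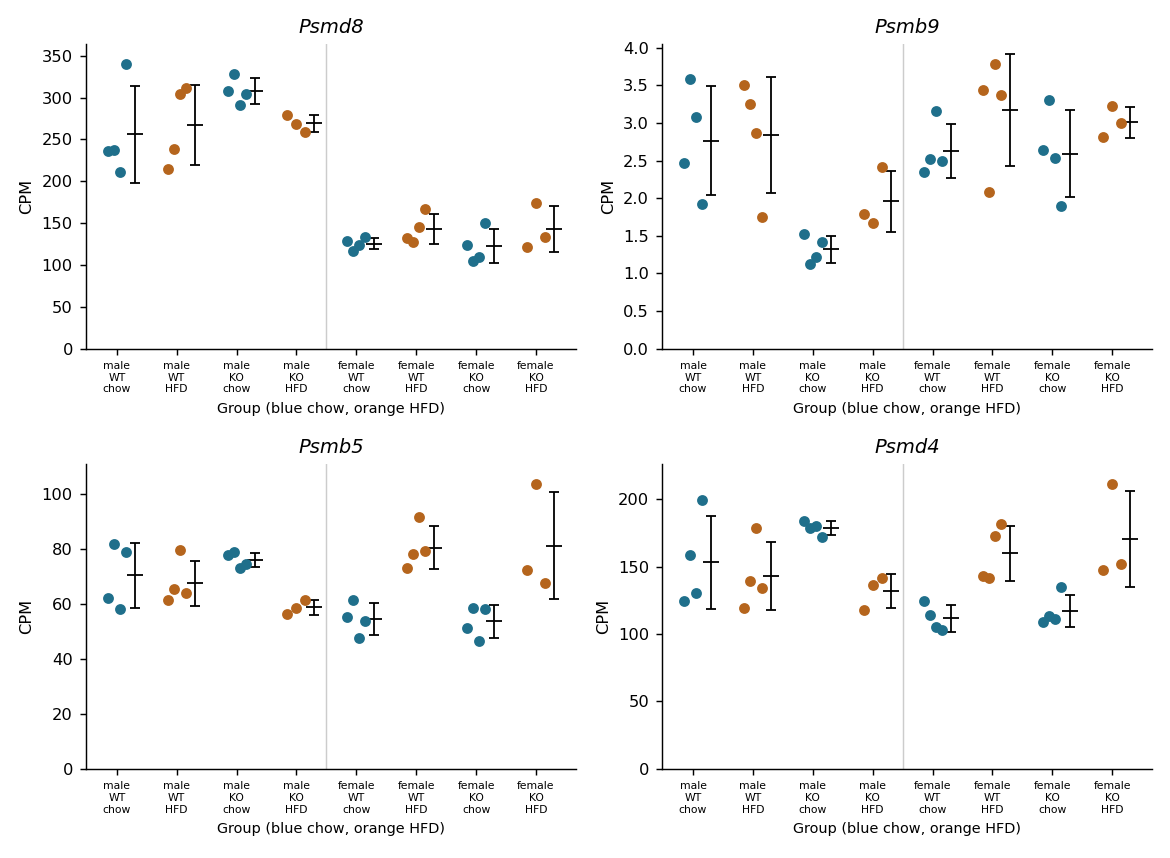
CPM per library of Psmd8, Psmb9, Psmb5 and Psmd4 in the 8 groups (points, libraries; blue chow, orange HFD; bars, mean ± SD, n = 3 or 4). Psmd8 separates the sexes, at 105 to 174 CPM in females and 211 to 340.3 CPM in males, and Psmb9 is lowest in male KO chow, at 1.12 to 1.52 CPM.

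Apart from Psmd8, differences between the sexes were small. In all, 3 of 36 genes were called higher and 5 lower in females, against 17.4% and 13.4% of all genes, or 30.8% either way. The 3 higher genes were the 3 interferon-inducible ones. Psmb9 differed by 0.41 ± 0.12 and lay between 1.89 and 3.78 CPM in females (median 2.81) and between 1.12 and 3.58 CPM in males (median 1.92), so the sexes overlapped. Psmb8 differed by 0.32 ± 0.12 and Psmb10 by 0.28 ± 0.08, and they overlapped as well. Besides Psmd8 the lower genes were the alpha gene Psma6 (-0.19 ± 0.07), the lid genes Psmd12 (-0.17 ± 0.06) and Psmd7 (-0.16 ± 0.05) and the scaffold gene Psmd2 (-0.14 ± 0.04). Psmb5, Psmb6 and Psmb7 did not pass the test. The call of Psmb8 was lost in 24 of 43 other settings and that of Psma6 in 8. Without the 3 libraries highest in Krt10, 2 members were higher and 1 lower, without female KO HFD 2 they were 2 and 13, without male KO chow 2 they were 2 and 3, and by title 0 and 10. Of 16 genes of antigen processing and interferon response, 13 were higher in females and 0 lower, with a median of 0.30. Of 11 macrophage and leukocyte markers tested 10 were higher, and of 8 fibroblast markers 8. Summed leukocyte markers lay at 54.9 to 151 CPM in females and 26.1 to 116 CPM in males. Their part in the levels of the inducible genes was not tested.

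Loss of MuRF1 left the constitutive subunit genes without a called change. Averaged over sex and diet, 0 of 33 were called, with differences (KO minus WT, log2) from -0.04 to 0.09 and standard errors of 0.04 to 0.08. The largest increase in this average was that of Psmd10 at 0.09 ± 0.08. The average combines strata that differed in direction. On HFD 31 of the 33 differences were negative in males (median -0.12) and 32 were positive in females (median 0.15). On chow 26 were positive in males and 15 in females. Within each stratum 0 of the 33 were called. Among all 36, Psmb9 was called lower and 0 genes were called higher, against 2.83% and 1.55% of all genes, or 4.39% either way. At an unadjusted p under 0.05 (edgeR) there were 4, against 19.7% of all genes, and DESeq2 called 1. Psmb9 differed by -0.42 ± 0.12 (log2, SE; adjusted p = 0.042, edgeR), Psmb8 by -0.26 ± 0.12 and Psmb10 by -0.17 ± 0.08, the latter 2 not called. The call of Psmb9 was lost in 27 of 43 other settings, 20 of them leaving out a single library, with differences from -0.47 to -0.24. It held without male WT chow 1 or 4, male KO chow 4, male WT HFD 4, male KO HFD 3, female WT chow 1 or 2, female KO chow 2, or female WT HFD 2 or 4, and was lost without any other single library.

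In male mice on chow Psmb9, on chromosome 17 (34181987 to 34187764, minus strand, mm10) beside Tap1 and Psmb8, lay at 2.47, 3.58, 3.08 and 1.92 CPM in WT and at 1.52, 1.12, 1.22 and 1.42 CPM in KO. The groups did not overlap, and male WT chow 4 was nearest to KO. The difference was -1.06 ± 0.25 (log2, SE; 2.09-fold lower in KO; adjusted p = 0.011, edgeR). It was the 1 member called, against 5.31% of all genes called lower, 1.63% higher and 6.95% either way. Psmb8 lay at 3.00, 4.06, 3.54 and 3.28 CPM in WT and at 2.63, 1.43, 2.00 and 2.21 CPM in KO, also without overlap, but missed the threshold (-0.74 ± 0.24, adjusted p = 0.057, edgeR), while DESeq2 called it. Psmb10 differed by 0.01 ± 0.16, and Psmb5, Psmb6 and Psmb7 by 0.11 ± 0.12, 0.14 ± 0.14 and 0.19 ± 0.13. Without male KO chow 2 or male KO chow 3, 0 members were called, and the difference of Psmb9 was -0.998 and -1.01. Psmb9 and Tap1 share 212 exon bases on opposite strands, and the strand setting of the counting is not given in the sources used here.

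Markers of other cell types differed in the same comparison. Of 16 genes of antigen processing and interferon response, 9 were lower in male KO chow and 0 higher, among them Oas2 (-1.19 ± 0.24), Tap1 (-1.18 ± 0.26), H2-D1 (-0.66 ± 0.16) and B2m (-0.58 ± 0.12). Of 11 macrophage and leukocyte markers 9 were lower, with a median of -1.13, and of 8 fibroblast markers 8, with a median of -1.22. Of 8 endothelial markers 5 were lower, with a median of -0.60. Of 6 adipocyte markers 0 were called, with a median of -0.77, and of 9 skeletal muscle markers 0, with a median of 0.29. Summed leukocyte markers lay at 64.3 to 107 CPM in male WT chow and 26.1 to 65.0 CPM in male KO chow, and summed fibroblast markers at 699 to 1197 CPM and 228 to 734 CPM, in the same order. Their part in the difference of Psmb9 was not tested.

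In the other strata 0 members were called for genotype. In males on HFD 2 had an unadjusted p under 0.05 (edgeR), against 9.88% of all genes, and DESeq2 called 0. There 34 of 36 differences were negative, with a median of -0.12, while 49.4% of all genes had a positive difference. Called by edgeR were 0.107% of all genes higher, 0.157% lower and 0.264% either way. In females on chow both counts were 0, where 4.86% of all genes had an unadjusted p under 0.05 (edgeR). Called by edgeR were 0.0214% of all genes higher, 0.0713% lower and 0.0927% either way. In females on HFD 5 had an unadjusted p under 0.05 (edgeR), against 7.86% of all genes, and DESeq2 called 0. There 32 of 36 differences were positive, with a median of 0.15, against 50.7% of all genes. Called by edgeR were 0% of all genes higher and 0.0713% lower or either way. The genotype effect on Psmb9 in females minus that in males was 0.75 ± 0.24 with an adjusted p of 0.23 (edgeR). No member was called by edgeR for this difference, against 0.0143% of all genes higher, 0.0143% lower and 0.0285% either way. DESeq2 called 0. An unadjusted p under 0.05 (edgeR) was found for 5 members and for 10.2% of all genes. Psmb2, the structural beta gene left out for its position, differed by -0.03 ± 0.05 on average.

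**Figure D5:**
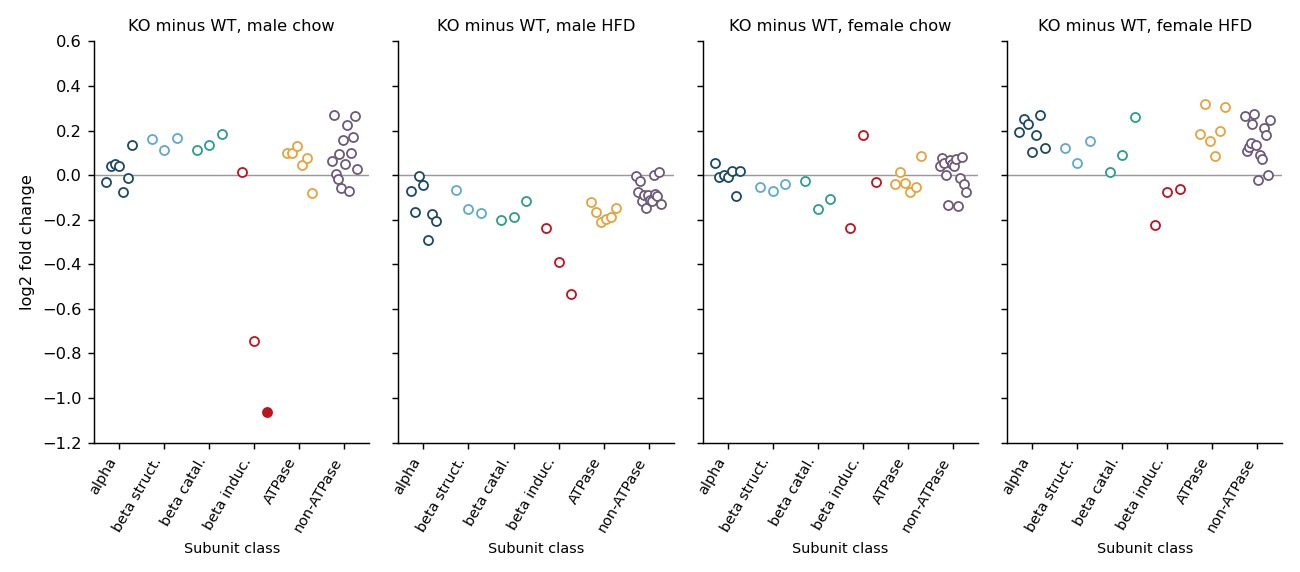
Log2 difference of KO minus WT for each gene in the 4 combinations of sex and diet, by subunit class (points, genes; filled points, adjusted p under 0.05). The constitutive genes lie between -0.29 and 0.32, and Psmb9 in male chow at -1.06 is the 1 filled point.

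Genes that work with the proteasome were read from lists outside the symbol rule, whose counts stand beside 21.6% of all genes higher and 23.6% lower in the difference of the diet effect between the sexes. In that comparison both 19S genes with other names were higher in females, the ubiquitin receptor Adrm1 by 0.72 ± 0.12 and the small subunit Sem1 by 0.76 ± 0.17. Of 5 activator and inhibitor genes 3 were higher and 0 lower: Psmf1, an inhibitor, by 0.39 ± 0.10, Psme1, of the interferon-inducible activator, by 0.36 ± 0.13, and Psme3, of the nuclear activator, by 0.31 ± 0.08. Of 6 assembly factors tested 4 were higher and 0 lower, among them Psmg3 (0.89 ± 0.25) and Pomp (0.49 ± 0.14), which guide assembly of the core. Of 5 genes for transcription and nuclear import of the proteasome 3 were higher and 1 lower. Nfe2l1, the factor that raises subunit transcription when the proteasome is impaired, was higher by 0.23 ± 0.09, Akirin2, which brings proteasomes into the nucleus, by 0.49 ± 0.12, and Nfe2l2 was lower by -0.50 ± 0.12.

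Of 13 ubiquitin receptors, shuttles and deubiquitinases, 4 had a higher diet effect in females and 1 a lower one, a share of higher calls not far from that of all genes (21.6%), with Ubqln4, a shuttle, at 0.62 ± 0.09 and Vcp, the unfoldase that feeds the proteasome, at 0.43 ± 0.08.

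For genotype these lists held few calls. Of all genes, 1.63% were called higher and 5.31% lower in males on chow. In males on chow Nfe2l1 was higher in KO by 0.28 ± 0.09 (adjusted p = 0.049, edgeR) and Ubqln4 by 0.33 ± 0.08, and none of the activator, assembly or other 19S genes was called by edgeR, with medians of 0.04, 0.13 and 0.23. Between the sexes Psme4, of the activator PA200, was lower in females by -0.39 ± 0.06 and Adrm1 by -0.19 ± 0.06. Of the 13 receptors and deubiquitinases 6 were lower and 0 higher, among them Usp14, the deubiquitinase that trims chains at the cap, by -0.16 ± 0.06. Of all genes, 13.4% were called lower in females, 17.4% higher and 30.8% either way.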

How the data were processed

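RNA from 31 gastrocnemius samples was enriched for polyA transcripts and sequenced with a stranded kit and 150 bp paired ends, per the labels' protocols. The authors deposited raw counts per Ensembl gene, made with featureCounts on mm10, per the submitters' processing notes. Aligner, annotation and strand setting are not known from these sources, so reads of overlapping genes and of near-identical copies may be misassigned. GENCODE M21 held 37693 of the 39017 identifiers. For testing, edgeR 4.0.16 was run with its quasi-likelihood method on the counts (R 4.3.3; TMM scaling, filterByExpr with a minimum count of 10, robust), with 1 coefficient per group and 1 spread per gene shared by the 30 grouped libraries. The Benjamini-Hochberg adjustment ran over 14024 genes in each of 14 comparisons, and called means an adjusted p under 0.05. CPM of members are scaled by TMM, and those of Trim63 and Krt10 are not. The common dispersion corresponds to a variation of 14.2% between animals. Of 42 pairs of libraries in a group 0 were identical, and the lowest chi-square per gene was 4.67. The labels name different animals, taken as the replicates.

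Members and lists were chosen with earlier results of these data known, and the lists are no independent support. Named are up to 6 called members per comparison and direction, the catalytic pairs, the extremes of the average comparisons and up to 4 called genes per list. Copies needed 90% identity over 200 bases. The steps were tested on simulated data. Alternatives were DESeq2 1.42.0, other scalings, filters and groupings, a GC correction, a replicate block and leaving out libraries. Some items of the lists are not reported here.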

Additional observations from a re-analysis of the deposited data

Results flagged for a closer look

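Groups of 4 libraries were checked for a library far from the others, in 60 groups over Psmd8, Psmd1, Psmd4, Psmc3 and the catalytic and interferon-inducible genes, and chance alone flags about 1 in 20. Psmb8 in female WT chow 2 lay at 3.70 CPM, above 2.92, 2.82 and 2.78 CPM in the rest of its group. Psmb10 in female WT chow 1 lay at 8.84 CPM, only slightly below 9.32, 9.41 and 9.38 CPM, which lie close together. These flags are no more than that rate gives over 60 groups.

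The diet effect differed between the sexes by the test of that difference for 22 members in one direction and 1 in the other. Among them were Psmb5 (0.80), Psmd3 (0.67), Psmc4 (0.64), Psmd4 (0.80), Psmb3 (0.62), Psmc3 (0.57) and Psmd1 (-0.22), all as log2 diet effect in females minus that in males.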

How the results depend on the processing

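The higher diet effect in females held under every setting run, with 17 to 28 members called higher. Leaving out 1 library at a time, the members called were 18 to 28 for diet by sex, 1 to 18 for diet in KO females, 3 to 10 in WT females, 0 to 6 in KO males and 0 to 0 in WT males. They were 0 to 2 for the average diet effect, 0 to 1 for the average genotype effect, 0 to 2 for genotype in male chow, 5 to 15 for sex and 0 to 0 for the remaining genotype comparisons.

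Grouping by title, which Trim63, Ddx3y or Xist contradict for 4 grouped libraries, gave 0 members for the average genotype effect and for diet in WT females, 25 in KO females and 2 in KO males. With only libraries whose labels agree, WT females had 2 and the average genotype effect 0. Removing the GC trend gave 3 in WT females, 1 in KO males, 2 for genotype in male chow and 0 for its average. Without the 3 libraries highest in Krt10 there were 0 in KO females, 3 for sex and 0 for average genotype. Leaving out 3 libraries that held 50 to 150 CPM of Trim63, a setting chosen after seeing the data, there were 4 in WT females, 14 for sex and 0 for average genotype. The unassigned library is titled male KO HFD but held 107 CPM of Trim63, against at most 6.24 in KO libraries. With it added to that group there were 1 for average diet, 6 in KO males and 0 for average genotype, for which no count filter also gave 0. DESeq2 called 2 for genotype in male chow, 2 in KO males and 1 for average diet. A fit of the 2 groups alone gave 0 for genotype in male chow and 22 in KO males. For most changed settings, here and above, the share of all genes called is not given beside the count of members. The counts therefore do not show whether the members changed apart from all genes. The cause of these changes was not tested.

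Named genes without a call changed sign near 0. With the GC trend removed, Psma3 for average diet was 0.0041 and Psmb8 for diet by sex -0.012. Without the Krt10 libraries Psmb9 for diet by sex was 0.0017 and Psmb5 for sex 0.0030. Psmb10 for genotype in male chow was -0.0067 with upper-quartile scaling and -0.0016 without the Trim63 libraries. Leaving out 1 library, Psmb8 for diet by sex ran from -0.046 to 0.23, Psmb9 from -0.14 to 0.046, and Psmb10 for genotype in male chow from -0.082 to 0.15. Over named genes and settings, 1809 values kept direction and side of the threshold, 168 lost the call, 5 gained it and 15 changed sign.

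Whether replicate numbers pair the libraries is not settled by these values. Over 99 pairs with the same number the median correlation was 0.028 (-0.42 to 0.52), against -0.011 over 294 other pairs. Of 30 libraries, 13 correlated best with their own number. With a replicate block 25 members were called for diet by sex and 1 for average diet. Psmb8 and Psmb9, at 11 to 64 counts per library, are limited by depth.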

Other observations

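The 1 library without a group, titled male KO HFD, held 107 CPM of Trim63, where grouped KO libraries lay at 0.47 to 6.24 and WT libraries at 108.5 to 253.6. It held 265 CPM of Psmd8 on the unscaled CPM scale, where grouped males lay at 213 to 315 and females at 113 to 165. Its Psmb9 was 4.20 CPM, above the 0.903 to 3.73 CPM of males and the 2.03 to 3.87 CPM of females. Psmb5 was 55.7 CPM, Psmb8 2.86 CPM and Psmb10 8.11 CPM, and the constitutive genes summed to 3409.9 CPM, each within the range of grouped males.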
